A study of Mus musculus with 36 samples.

Results

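In wild-type (WT) mouse bone marrow cells at day 0, the libraries labelled Ly6C-negative (Ly6Cneg, n = 2) were compared with those labelled Ly6C-high (Ly6Chi, n = 3) and, separately, with those labelled Ly6C-intermediate (Ly6Cint, n = 3). A gene counted as different when it was called in the same direction in both comparisons, over all genes. These 8 libraries were part of 34 that had a column in the expression table. All 8 were total RNA of sorted bone marrow derived monocytes of WT genotype (called cWT in the treatment text), at day 0 in MCSF, the growth factor that keeps monocytes and macrophages alive. Other libraries of the series came from mice labelled Irf8 cKO, a conditional knockout of a transcription factor of monocyte development, and from osteoclasts (OC) grown from the same sorted subsets for 4 days in MCSF (20 ng/ml) and RANKL (40 ng/ml). No source used here gives the Cre driver, the ages of the mice or the gates of the sort, and mice of both sexes were used. Of 5 sex-linked genes, 1 was called higher and 3 lower in Ly6Cneg than in Ly6Chi, and 0 were called against Ly6Cint. Among them, Uty had 0 reads in both Ly6Cneg libraries. The 5 genes summed to 24380 and 27840 recovered normalised reads in Ly6Cneg and to 23610, 12580 and 12160 in Ly6Chi. In Ly6Cint the sums were 26280, 17700 and 22960. The mix of sexes in each library was not tested, nor was its part in the differences below. A further WT Ly6Cneg sample of each stage was not analysed here. Nothing states that replicates came from separate animals, so each p-value reflects how far single libraries vary, and that variation may be technical.

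Ly6C is a small surface protein, encoded in mice by Ly6c1 and Ly6c2, that is abundant on classical monocytes newly made in the marrow. In mice, non-classical monocytes carry little of it and depend on the transcription factor Nr4a1, with the fractalkine receptor Cx3cr1 as a further marker. A Ly6C-negative gate in marrow can also take in early progenitors, dendritic cells, macrophages and some granulocytes, none of which need carry Ly6C.

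The Ly6c2 transcript did not follow the labels. Its deposited log2-scale values were 12.48 and 12.03 in the libraries labelled Ly6Cneg, 9.86, 9.82 and 9.98 in Ly6Chi and 13.47, 13.53 and 13.62 in Ly6Cint. For Ly6c2 the groups did not overlap, and the libraries labelled Ly6Cneg stood above Ly6Chi by 2.37 ± 0.22 (SE, adjusted p = 1.56e-09) and below Ly6Cint, with a difference of -1.28 ± 0.22 (adjusted p = 4.11e-05). Ly6c1 was near the floor in every library, at 0 to 6 reads. Subset names below are therefore those of the labels, and "Ly6Cneg" stands for the libraries labelled so. Non-classical markers did not rise as a list either: 3 of 16 were higher and 7 were lower than in both, with Nr4a1 at 8.03 and 7.99 in Ly6Cneg, 9.11 to 9.25 in Ly6Chi and 9.65 to 9.89 in Ly6Cint. Without Ly6Cneg replicate 2, 1 non-classical marker was higher.

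Against Ly6Chi, 8013 of 38873 tested genes were called (20.6%; adjusted p under 0.05), and against Ly6Cint 8948 were called (23%). In the same direction against both, 2911 genes were higher in Ly6Cneg (7.49%) and 2701 were lower (6.95%). Of these, 1023 (2.63%) and 664 (1.71%) differed at least 2-fold from each. With no overlap between the libraries of the groups, 2899 were higher (7.46%) and 2695 lower (6.93%). Over all tested genes the median difference was 0.02 against Ly6Chi and 0.17 against Ly6Cint, and quantile normalization moved them to -0.03 and 0.04. Under that scaling the calls against Ly6Chi were 4093 higher and 4266 lower, in place of 4118 and 3895. Relative depth was 1.14 and 1.29 in Ly6Cneg, 0.751 to 1.075 in Ly6Chi and 1.01 to 1.391 in Ly6Cint. Reads fell on 711 and 650 of 1051 olfactory receptor genes, which such cells are not known to use, in Ly6Cneg, on 429 to 720 in Ly6Chi and on 371 to 418 in Ly6Cint. Among genes in the lowest of 4 equal groups by mean level, 156 were higher and 0 lower than in both, and the part of this background signal in them was not tested. In the highest group, of 9718 genes, 1836 were higher and 2223 lower. Each list count below is to be read beside these shares and those of all genes, since lists were not compared with genes of like level. Over all tested genes, normalised reads summed to 29700000 to 30400000 in Ly6Cneg, 33300000 to 33900000 in Ly6Chi and 36000000 to 36600000 in Ly6Cint. List sums are not scaled to these totals. In bulk RNA, more cells of a type and more RNA per cell cannot be told apart, which holds for every result below.

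**Figure D1:**
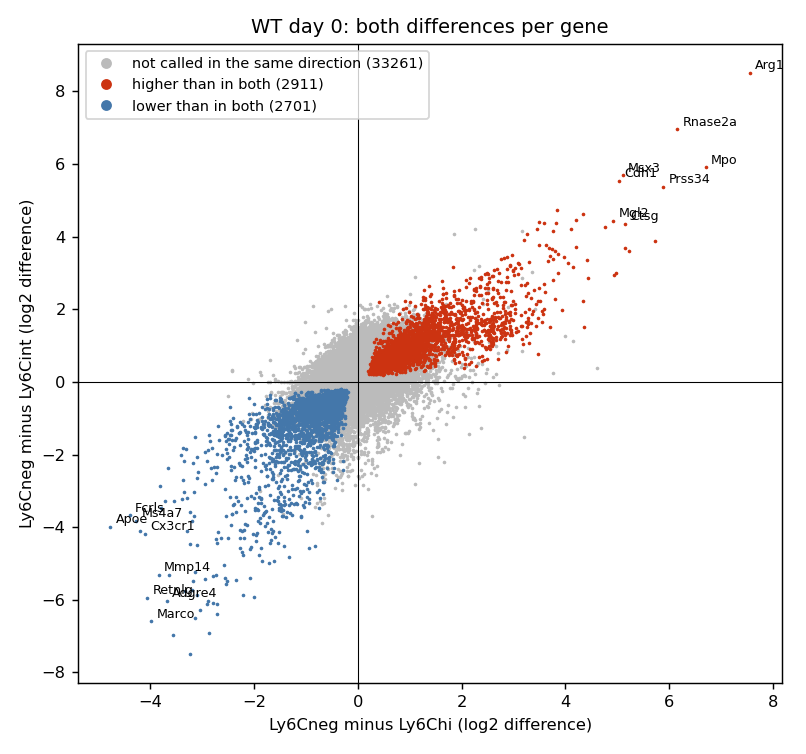
Each point is 1 of 38873 tested genes, with its log2 difference of Ly6Cneg minus Ly6Chi on the x axis and of Ly6Cneg minus Ly6Cint on the y axis. Red points are the 2911 genes higher than in both and blue points the 2701 lower than in both, and the same Ly6Cneg libraries enter both axes, so the diagonal trend is partly built in. Arg1 lies at the upper right end (7.56 and 8.50) and Marco at the lower left (-3.98 and -6.59).

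Leading genes were picked among those without overlap between groups, so their separation was a condition of choice. Ranked by the smaller of both differences, the first rise was that of Arg1 (ENSMUSG00000019987, mm10 chr10:24915221-24927484, - strand), encoding arginase 1, which breaks down arginine and marks alternatively activated macrophages. It read 15.50 and 15.65 in Ly6Cneg, 7.68, 8.47 and 7.89 in Ly6Chi and 7.15, 6.82 and 7.23 in Ly6Cint. The groups lay far apart, with differences of 7.56 ± 0.28 (SE, adjusted p = 3.01e-17) and 8.50 ± 0.28 (2.85e-18). Rnase2a, a member of the eosinophil-associated ribonuclease family, followed, with 12.71 and 12.84 in Ly6Cneg, 6.47 to 6.70 in Ly6Chi and 5.59 to 6.01 in Ly6Cint. Mpo (mm10 chr11:87793581-87804413, + strand), encoding myeloperoxidase of neutrophil primary granules, read 14.50 and 14.23, against 7.55 to 7.82 and 8.17 to 8.71. The differences were 6.16 ± 0.22 and 6.96 ± 0.22 for Rnase2a and 6.71 ± 0.41 and 5.91 ± 0.41 for Mpo.

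The other 12 of the 15 leading rises were of several kinds. Prss34, a basophil protease, averaged 11.49 against 5.61 in Ly6Chi and 6.13 in Ly6Cint, and Ctsg, the primary granule protease cathepsin G, 12.20 against 7.05 and 7.84. Surface and adhesion genes included the lectin gene Mgl2 (13.95 against 9.03 and 9.52), Cdh1, encoding E-cadherin (11.02 against 5.99 and 5.48), and the receptor tyrosine kinase gene Epha2 (differences 4.35 and 4.62). Phgdh, which starts serine synthesis, read 12.14 in both Ly6Cneg libraries, 5.77 to 7.04 in Ly6Chi and 8.03 to 8.41 in Ly6Cint. Also leading were the immunoglobulin A constant gene Igha (4.76 ± 0.60 and 4.27 ± 0.60), the resistin-like gene Retnla (3.81 and 4.38), the secreted factor gene Angptl2 (3.84 and 4.74), the actin regulator Eps8 (3.76 and 4.16), Serpinb9b (4.20 and 4.45) and the homeobox gene Msx3 (5.11 and 5.69). Msx3 had 0 reads in 1 Ly6Chi and 1 Ly6Cint library, and Igha in 1 Ly6Cint library. All 15 kept their calls under every alternative run, which their choice by large differences in these libraries made likely.

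Among the leading falls, Cx3cr1 (mm10 chr9:119901616-120069879, - strand) read 8.03 and 8.01 in Ly6Cneg, 12.06 to 12.16 in Ly6Chi and 12.13 to 12.29 in Ly6Cint. Apoe (mm10 chr7:19696109-19699188, - strand), the lipid carrier secreted by macrophages, read 14.78 and 14.84, against 19.46 to 19.66 and 18.72 to 18.86. The differences were -4.10 ± 0.09 and -4.19 ± 0.09 for Cx3cr1 and -4.77 ± 0.14 and -3.99 ± 0.14 for Apoe. Other macrophage genes in this set were the scavenger receptor gene Marco (6.49 against 10.47 in Ly6Chi and 13.08 in Ly6Cint), the first complement component gene C1qa (11.38 against 14.93 and 14.67), the cholesterol exporter gene Abca1 (-3.80 and -3.47), Ms4a7 (-4.28 and -3.83), Aif1 (-3.30 and -4.10), Pla2g7 (-3.71 and -3.29) and the Fc receptor-like gene Fcrls (-4.40 and -3.67). The matrix protease gene Mmp14 (-3.84 and -5.32), the adhesion receptor gene Adgre4 (-3.68 and -6.03), the formyl peptide receptor gene Fpr2 (-3.34 and -5.75) and the neutrophil gene Retnlg (-4.06 and -5.94) lay further below Ly6Cint than below Ly6Chi. So did the interferon-induced genes Ifit3 (-3.56 and -6.96) and Rtp4 (-3.64 and -5.31). All 15 leading falls also kept their calls under every alternative run, which the way they were chosen likewise made likely.

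**Figure D2:**
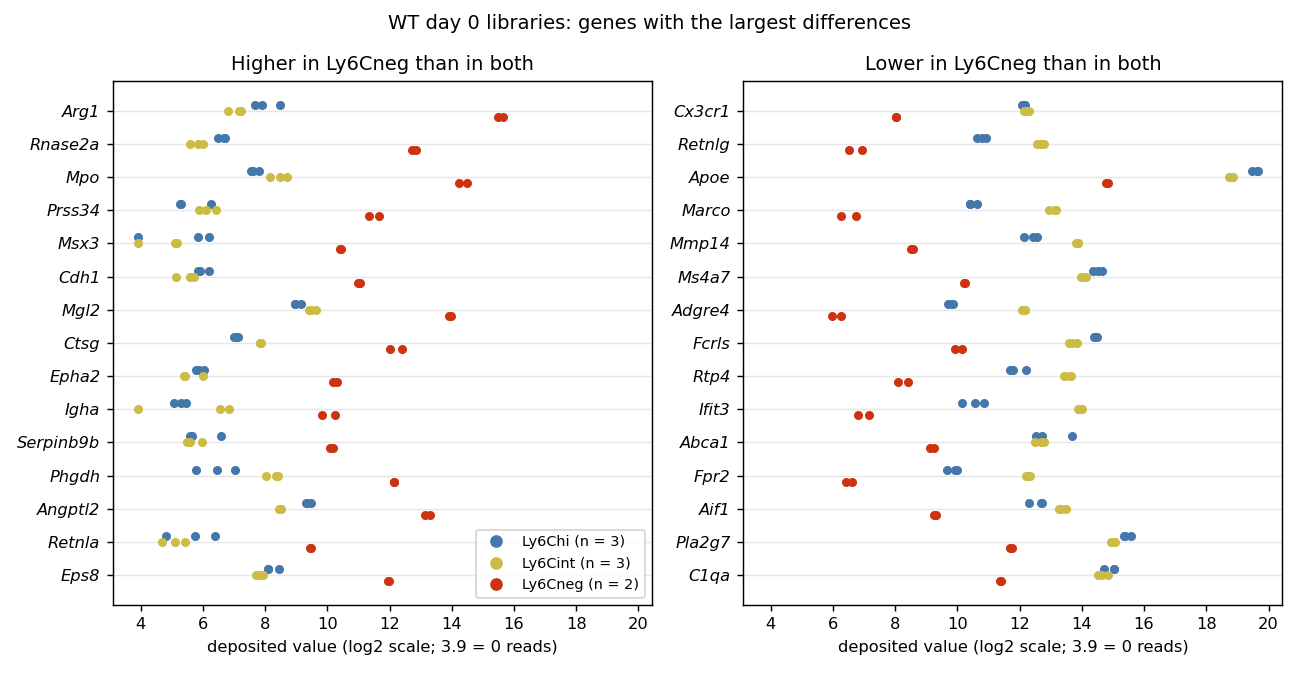
Deposited log2-scale values (x axis) of the 15 leading rises (left) and 15 leading falls (right) in each of the 8 libraries, 1 point per library, where 3.9 is 0 reads. The Ly6Cneg points (red) of all 30 genes lie outside the range of the Ly6Chi (blue) and Ly6Cint (yellow) points, which the selection of these genes required.

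Cell cycle genes were higher in Ly6Cneg throughout. All 20 DNA replication and S-phase genes and all 20 mitosis and G2/M genes were higher than in both, against 7.49% of all genes. The median difference was 2.53 from Ly6Chi and 1.61 from Ly6Cint for the first list and 2.95 and 1.63 for the second. Mki67, the proliferation marker, read 14.24 and 14.42 in Ly6Cneg, 10.51 to 11.15 in Ly6Chi and 12.32 to 12.99 in Ly6Cint. Ccnb1, encoding the mitotic cyclin B1, read 11.82 in both Ly6Cneg libraries, 8.33 to 8.42 in Ly6Chi and 9.57 to 9.75 in Ly6Cint. In both genes the order was Ly6Chi, Ly6Cint, Ly6Cneg with no overlap. Of the replication genes, the helicase subunit gene Mcm5 differed by 3.47 ± 0.10 and 2.23 ± 0.10, the DNA methylation maintenance factor Uhrf1 by 3.60 and 1.99, and Pcna, the polymerase clamp, by 0.75 and 0.89.

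Promoter windows from RefSeq (GRCm38.p6, 250 bases before to 50 after the gene start) were available for 17 of the 20 mitosis genes, and 3 are shown for the letters they share, chosen as the called members with the largest differences whose window held both motifs. The cell cycle homology region (CHR), TTTGAA, and the CCAAT box, CCAAT, are known motifs of mitotic gene promoters in mammals. The windows are Bub1b at chr2:118597961-118598260 (+ strand), Aurka at chr2:172370521-172370820 (- strand) and Plk1 at chr7:122159185-122159484 (+ strand), each printed 5′ to 3′ along the gene, with both motifs on either strand in capitals.
Bub1b: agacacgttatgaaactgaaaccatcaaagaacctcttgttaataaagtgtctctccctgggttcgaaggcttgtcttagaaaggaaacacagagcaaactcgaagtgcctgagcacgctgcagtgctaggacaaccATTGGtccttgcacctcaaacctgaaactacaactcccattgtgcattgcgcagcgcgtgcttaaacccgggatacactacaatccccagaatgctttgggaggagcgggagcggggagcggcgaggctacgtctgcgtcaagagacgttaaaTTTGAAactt
Aurka: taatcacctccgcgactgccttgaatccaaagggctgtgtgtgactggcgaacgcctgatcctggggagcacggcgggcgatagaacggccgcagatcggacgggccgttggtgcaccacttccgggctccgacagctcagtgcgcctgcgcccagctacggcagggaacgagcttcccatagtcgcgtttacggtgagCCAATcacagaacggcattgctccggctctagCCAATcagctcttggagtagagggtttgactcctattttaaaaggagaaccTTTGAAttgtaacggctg
Plk1: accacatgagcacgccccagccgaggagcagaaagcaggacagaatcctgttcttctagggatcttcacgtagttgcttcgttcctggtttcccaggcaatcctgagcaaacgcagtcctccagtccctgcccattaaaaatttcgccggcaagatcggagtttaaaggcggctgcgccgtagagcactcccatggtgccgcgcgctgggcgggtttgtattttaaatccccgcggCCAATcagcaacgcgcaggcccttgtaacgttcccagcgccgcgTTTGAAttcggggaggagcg

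In these 3 windows TTTGAA lay downstream of CCAAT or its reverse complement. Counted by gene, with a match in any of its windows, TTTGAA was in 12 of 17 mitosis genes and 2 of 16 replication genes. Its share was 20.23% of all 27025 genes with a window. CCAAT was in 15 of 17 and 11 of 16, against 41.06%, and the E2F motif TTTGGCGC was in 0 of 17 and 4 of 16 (Mcm3, Mcm5, Mcm6 and Cdt1), against 0.58%. Both strands were searched. Bub1b differed by 3.30 ± 0.15 and 2.01 ± 0.15, Aurka by 2.64 ± 0.09 and 1.75 ± 0.09, and Plk1 by 2.99 ± 0.10 and 1.72 ± 0.10.

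Type I interferon-stimulated genes were lower in Ly6Cneg almost without exception. Of 32 genes, 31 were lower than in both, against 6.95% of all genes, with medians of -1.83 from Ly6Chi and -4.25 from Ly6Cint. Their summed level in recovered normalised reads was 16000 to 18600 in Ly6Cneg, 57500 to 79300 in Ly6Chi and 396000 to 441000 in Ly6Cint. Irf7, the transcription factor that amplifies the interferon response, read 8.57 and 8.84 in Ly6Cneg, 11.48 to 12.20 in Ly6Chi and 15.01 to 15.32 in Ly6Cint. Ifit3, encoding an antiviral RNA-binding protein family member, read 6.80 and 7.14, against 10.16 to 10.86 and 13.87 to 14.01. Both were lowest in Ly6Cneg and highest in Ly6Cint, without overlap. The exception was Usp18, a protease that removes ISG15, with a difference from Ly6Chi of -0.66 ± 0.24 (adjusted p = 0.0508) and from Ly6Cint of -3.33 ± 0.24.

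The interferon-stimulated response element (ISRE), which interferon-activated complexes bind, is shown in 4 windows of genes that fell, chosen in the same way: Ifit3 at chr19:34583279-34583578 (+ strand), Ifit1 at chr19:34640639-34640938 (+ strand), Rsad2 at chr12:26456403-26456702 (- strand) and Isg15 at chr4:156200769-156201068 (- strand). Capitals mark GAAA, any 2 bases and GAAA on either strand, which reads TTTC, any 2 bases and TTTC when it lies on the strand not printed.
Ifit3: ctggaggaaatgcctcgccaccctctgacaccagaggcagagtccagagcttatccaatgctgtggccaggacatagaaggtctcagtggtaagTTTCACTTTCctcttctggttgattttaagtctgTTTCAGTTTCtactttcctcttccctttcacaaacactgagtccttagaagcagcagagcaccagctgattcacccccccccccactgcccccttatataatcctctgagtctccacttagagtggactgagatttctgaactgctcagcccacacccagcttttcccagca
Ifit1: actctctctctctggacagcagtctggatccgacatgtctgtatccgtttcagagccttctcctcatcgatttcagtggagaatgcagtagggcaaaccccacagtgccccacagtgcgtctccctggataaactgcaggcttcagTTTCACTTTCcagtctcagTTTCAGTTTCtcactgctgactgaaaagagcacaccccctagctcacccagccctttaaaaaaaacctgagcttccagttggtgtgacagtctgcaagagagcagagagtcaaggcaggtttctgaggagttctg
Rsad2: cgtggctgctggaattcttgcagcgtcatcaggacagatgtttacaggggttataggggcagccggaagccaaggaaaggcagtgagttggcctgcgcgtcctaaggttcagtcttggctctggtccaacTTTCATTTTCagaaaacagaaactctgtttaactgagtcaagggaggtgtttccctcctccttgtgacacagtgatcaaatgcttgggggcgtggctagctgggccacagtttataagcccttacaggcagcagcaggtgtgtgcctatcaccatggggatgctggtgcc
Isg15: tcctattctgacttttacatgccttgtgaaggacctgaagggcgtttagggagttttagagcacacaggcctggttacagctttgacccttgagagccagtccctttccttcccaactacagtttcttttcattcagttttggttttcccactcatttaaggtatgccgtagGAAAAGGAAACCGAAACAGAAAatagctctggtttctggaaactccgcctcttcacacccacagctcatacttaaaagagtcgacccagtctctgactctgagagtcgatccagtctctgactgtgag

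The Ifit3 and Ifit1 windows each held 2 separate matches, Rsad2 held 1, and Isg15 overlapping ones. The motif was in 12 of 22 genes of this list with a window and in 8 of 13 of the interferon-gamma list, against 3.99% of all genes with a window. A match is a description of the letters, not a measured site. Ifit1 differed by -2.79 ± 0.23 and -6.09 ± 0.23, the antiviral enzyme gene Rsad2 by -2.72 ± 0.25 and -6.40 ± 0.25, and the ubiquitin-like gene Isg15 by -2.55 ± 0.26 and -5.58 ± 0.26.

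Of 21 interferon-gamma-inducible GTPases and antigen processing genes, 12 were lower and 0 higher than in both (medians -1.22 and -3.37). The GTPase gene Iigp1 had 12 and 6 reads in Ly6Cneg and 121 to 314 in Ly6Chi, and fell by 2.72 from Ly6Chi and by 6.10 from Ly6Cint on the log2 scale (differences -2.72 ± 0.23 and -6.10 ± 0.23). The chemokine gene Cxcl10 read 7.08 and 7.76, against 9.19 to 9.71 and 13.17 to 13.55. The peptide transporter gene Tap2 and the immunoproteasome gene Psmb8 were not called in both, with means of 11.44 and 12.40 in Ly6Cneg and 11.47 and 12.38 in Ly6Chi. From Ly6Cint, 20 of the 21 were lower.

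MHC class II genes, which present peptides to CD4 T cells, went the other way. Of 11, 10 were higher than in both, with medians of 1.91 and 0.75. Ciita, the master activator of this gene group, read 12.62 and 12.64 in Ly6Cneg, 9.66 to 10.33 in Ly6Chi and 11.06 to 11.33 in Ly6Cint, a gap without overlap of 2.59 ± 0.16 and 1.40 ± 0.16. Cd74, the invariant chain, differed by 1.91 ± 0.14 and 0.72 ± 0.14, and H2-Ob, a regulator of peptide loading, by 2.97 ± 0.37 and 2.11 ± 0.37. H2-Eb2 was the exception, with 25 and 31 reads in Ly6Cneg, 0 to 6 in Ly6Chi and 114 to 141 in Ly6Cint. A class II promoter element, TGATGCAA, was in 1 of 8 genes with a window (H2-Ob), against 1.03% of all such genes.

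Dendritic cell markers were higher too: 10 of 16 were higher and 1 lower than in both (medians 2.26 and 1.25). Their summed level was 11000 to 11600 normalised reads in Ly6Cneg, 6500 to 6810 in Ly6Chi and 6450 to 6610 in Ly6Cint. Itgax, encoding CD11c, read 11.72 and 11.76, against 8.79 to 9.06 and 9.73 to 9.80. The plasmacytoid marker Siglech had 238 and 235 reads, against 9 to 16 and 11 to 18, and Kmo, a kynurenine pathway enzyme gene, differed by 2.49 and 2.14. Zbtb46, a transcription factor gene of conventional dendritic cells, was higher (1.72 and 1.30), and Tcf4, which plasmacytoid dendritic cells need, was lower than in both (-1.27 ± 0.07 and -0.72 ± 0.07). Flt3 itself, a receptor of dendritic cell progenitors, averaged 9.68 against 6.74 and 7.75. The part of dendritic cells in the class II result was not tested.

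**Figure D3:**
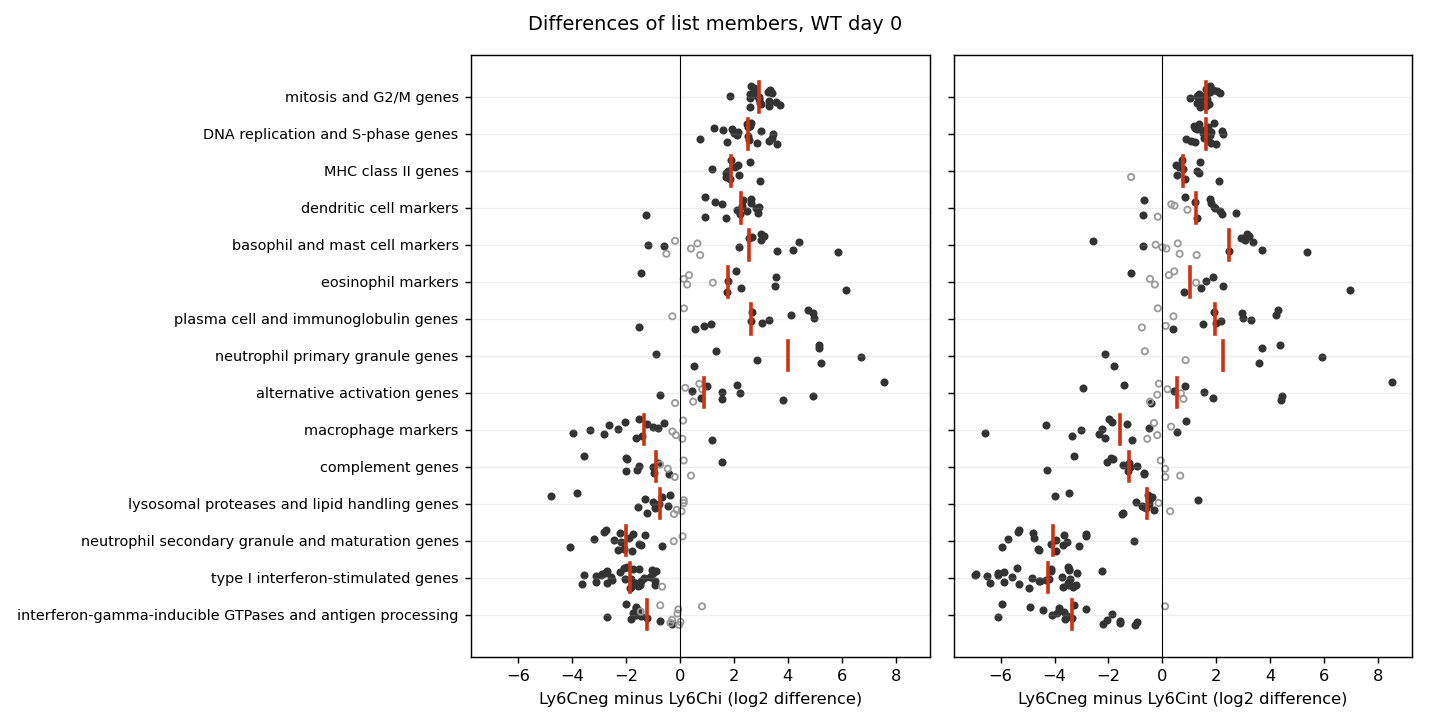
Each point is a list member, with its log2 difference from Ly6Chi (left) or Ly6Cint (right) on the x axis; filled points have an adjusted p under 0.05, open points do not, and the red bar is the list median. Both cell cycle lists lie wholly above 0 (medians 2.53 to 2.95 on the left), and the interferon and secondary granule lists lie largely below 0 and further so against Ly6Cint (medians -4.25 and -4.04).

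Primary and secondary granule genes of neutrophils gave opposite counts. Primary granule proteins are made by promyelocytes, and secondary ones by later precursors. The genes of the 4 azurophil proteins Mpo, Elane, Ctsg and Prtn3 were higher than in both. Elane, neutrophil elastase, read 13 and 12.72 in Ly6Cneg, 7.64 to 7.77 in Ly6Chi and 9 to 9.39 in Ly6Cint. Of the other 4 in this list, Igsf6 was lower than in both (-0.89 and -2.13) and Ms4a3, Serpinb1a and Gfi1 were not called in both. Of 18 secondary granule and maturation genes, by contrast, 16 were lower than in both and 0 higher, with medians of -1.99 and -4.04. The iron-binding lactoferrin gene Ltf read 11.36 and 11.28, against 14.31 to 14.66 and 16.99 to 17.14, and the surface marker gene Cd177 8.98 and 8.65, against 11.49 to 11.70 and 14.06 to 14.30. S100a8, a subunit of calprotectin, differed by -2.08 ± 0.35 and -4.61 ± 0.35. Summed, this list held 32400 to 35400 normalised reads in Ly6Cneg, 114000 to 139000 in Ly6Chi and 640000 to 706000 in Ly6Cint. The collagenase gene Mmp8 (-0.23 ± 0.11, adjusted p = 0.168) and Fcnb (0.10 ± 0.53, 0.957) did not pass against Ly6Chi.

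Basophil and eosinophil genes were among the rises. Of 17 tested basophil and mast cell markers, 9 were higher and 1 lower than in both, with medians of 2.58 and 2.47 (1.61 against Ly6Cint when genes with 0 reads in a whole group are set to the floor of 3 reads). Mcpt8, a basophil protease gene, read 9.30 and 8.99 in Ly6Cneg, 4.80 to 5.07 in Ly6Chi and 4.81 to 5.81 in Ly6Cint, without overlap. Fcer1a, the IgE receptor subunit, had 42 and 35 reads in Ly6Cneg and 0 or 1 in every other library. Gata2, a transcription factor of this lineage, differed by 2.99 ± 0.19 and 3.08 ± 0.19, and the carboxypeptidase gene Cpa3 by 3.11 and 3.23. Mast cell protease genes were near the floor: Tpsb2, Tpsab1 and Mcpt4 averaged 5.17, 4.54 and 4.31 in Ly6Cneg and were not called in both. The IL-6 receptor gene Il6ra was lower (-0.60 and -0.72), and Hdc was not called in both. The summed level of the list was 12900 to 15400 in Ly6Cneg, 7460 to 8350 in Ly6Chi and 11100 to 12500 in Ly6Cint. Prss34 is in this list, and the sum without it was not computed. The GATA motif AGATAAG was in 2 of 16 genes of this list with a window (Ms4a2 and Il6ra) and 0 of 10 of the eosinophil list, against 3.5% of all such genes.

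Of 12 eosinophil markers, 6 were higher and 1 lower than in both (medians 1.78 and 1.02), and 3 were higher without Ly6Cneg replicate 1. Rnase2a had the largest difference, and its family holds near-identical copies, so its counts are uncertain. The granule protein gene Prg2 had 342 and 330 reads in Ly6Cneg, 0, 25 and 1 in Ly6Chi and 30, 26 and 16 in Ly6Cint. The peroxidase gene Epx had 11 and 12 reads in Ly6Cneg and 0 to 4 elsewhere. Its call was lost without either Ly6Cneg library and without Ly6Cint replicate 1 or replicate 3. Ccr3, the eotaxin receptor, was lower (-1.44 ± 0.13 and -1.17 ± 0.13), and the IL-5 receptor gene Il5ra averaged 4.98 in Ly6Cneg against 4.71 and 5.26.

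Plasma cell and immunoglobulin genes were also higher: 10 of 14 against both and 0 lower (medians 2.65 and 1.97). The kappa light chain gene Igkc read 9.76 and 10.05 in Ly6Cneg, 4.80 to 5.07 in Ly6Chi and 6.48 to 7.30 in Ly6Cint. Iglc1 had 46 and 84 reads in Ly6Cneg and 0 in the other 6 libraries. Jchain, which joins IgA and IgM units, had 227 and 256 reads, against 2 to 4 and 16 to 30. B cell surface and transcription factor genes did not rise with them: 0 of 15 B cell markers were higher than in both and 2 were lower (Bank1 and Cd79b), with Ms4a1 at 5.59 in Ly6Cneg, against 5.68 in Ly6Chi. Among genes annotated as immunoglobulin variable segments, 20 were higher than in both. How many of them were tested was not counted, so no share can be set beside 7.49% of all genes. Many variable segments and some constant genes have near-identical copies, so the counts of those are uncertain.

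**Figure D4:**
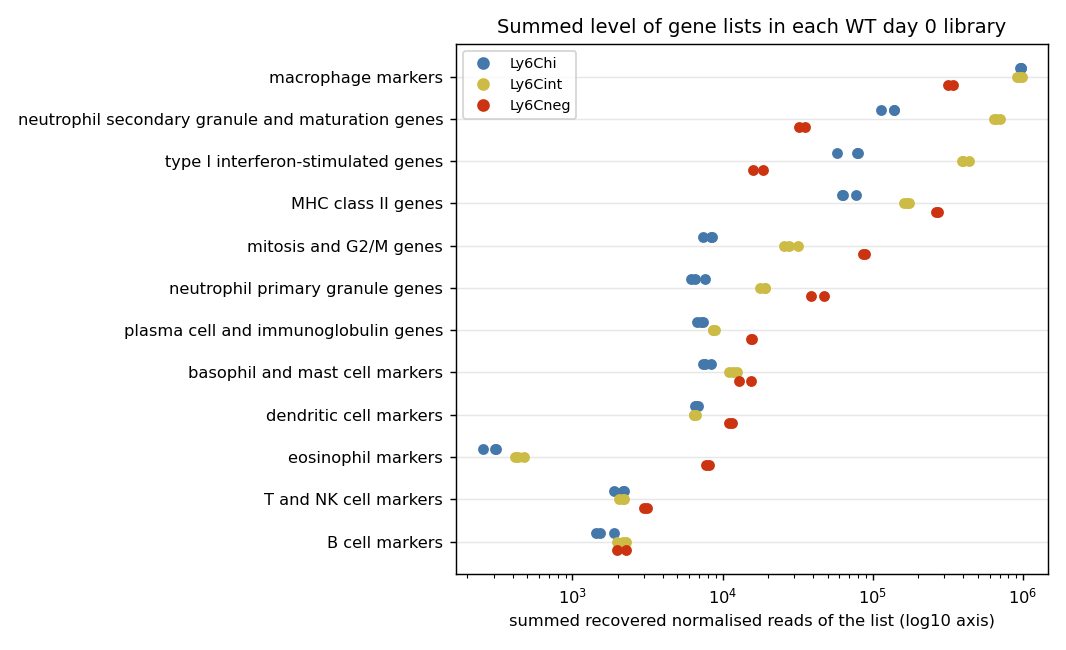
Summed recovered normalised reads of 12 gene lists (log10 x axis) in each library, 1 point per library. The sums are not scaled to the total of each library. Ly6Cneg libraries (red) are lowest for macrophage, secondary granule and interferon genes (16000 to 18600 for the last). They are highest for mitosis, class II, primary granule, plasma cell, dendritic, eosinophil, basophil and T and NK cell genes. The basophil sums are 15370 and 12890 in Ly6Cneg, against 11110 to 12510 in Ly6Cint. B cell sums of Ly6Cneg and Ly6Cint overlap. The eosinophil list includes Rnase2a, whose counts are uncertain, and the basophil list includes Prss34. A sum can rest largely on 1 gene, and sums without these genes were not computed.

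Mature macrophage genes were lower. Of 18 macrophage markers, 11 were lower and 0 higher than in both (medians -1.32 and -1.59), and the list sum was 316000 to 345000 in Ly6Cneg against 949000 to 975000 in Ly6Chi and 913000 to 978000 in Ly6Cint. Adgre1, encoding F4/80, read 14.12 and 14.30, against 15.57 to 15.92 and 16.16 to 16.22. The efferocytosis receptor gene Mertk read 9.71 and 9.98, against 12.52 to 12.96 and 12.13 to 12.27, and the transcription factor gene Maf 11.80 and 11.94, against 15.18 to 15.25 and 14.83 to 14.98. Each of these separated Ly6Cneg from all other libraries. The scavenger receptor genes Msr1 and Cd163 were not called in both. The part of the higher cell cycle and granulocyte precursor genes in these falls was not tested.

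Complement genes fell as well, 10 of 16 with 0 higher (medians -0.89 and -1.22). C1qb and C1qc, partners of C1qa, differed by -2 and -1.91 and by -1.98 and -1.83. C3 lay between the other subsets, at 13.91 and 13.78 in Ly6Cneg, 11.87 to 12.76 in Ly6Chi and 15.71 to 16.02 in Ly6Cint. Of 14 TAM receptor and efferocytosis genes, 6 were lower, among them Axl (-2.20 and -4.31) and Stab1 (-2.56 and -1.49), and 2 were higher, the phagocytosis bridge gene Mfge8 and the lipid scavenger gene Cd36 (0.42 ± 0.10 and 2.19 ± 0.10), whose call was lost without Ly6Cneg replicate 2. Of 16 lysosomal protease and lipid handling genes, 11 were lower and 0 higher, including Npc2 (-1.21 and -1.45) and Ctss (-1.01 and -0.97), but with quantile normalization 8 were lower and 3 higher.

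Of the alternative activation genes, 7 of 16 were higher and 0 lower than in both (medians 0.91 and 0.56). Beside Arg1, Mgl2 and Retnla these were the transcription factor gene Egr2 (1.55 ± 0.10 against each), the mannose receptor gene Mrc1 (0.79 and 1.88), Clec10a (0.44 and 0.43) and the chemokine gene Ccl24 (0.99 and 0.85). The call of Clec10a was lost without either Ly6Cneg library and with log2 of recovered reads plus 1 or plus 10. That of Ccl24 was lost without Ly6Cneg replicate 1. Chil3, often grouped with them, was not called in both, at 13.07 and 12.89 in Ly6Cneg, 12.56 to 12.95 in Ly6Chi and 15.87 to 15.97 in Ly6Cint.

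Monocyte markers did not move together. Of 12 classical markers 2 were higher, the matrix proteoglycan gene Vcan (3.93 ± 0.23 and 1.97 ± 0.23) and S100a4 (1.91 and 1.76), and 2 were lower, the endotoxin co-receptor gene Cd14 (-2.32 and -3.27) and Mgst1 (-1.73 and -1.13). Ccr2, the receptor by which monocytes leave the marrow, read 13.77 and 13.67 in Ly6Cneg, 12.69 to 13.22 in Ly6Chi and 14.02 to 14.16 in Ly6Cint, above the first (0.71 ± 0.14, adjusted p = 0.00017) and not called against the second (-0.37 ± 0.14, 0.054). Ms4a4c (1.09 and -2.82) likewise lay between the other subsets.

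Among 20 myeloid transcription factors, 4 were higher and 8 lower than in both, against 7.49% and 6.95% of all genes. In the highest of 4 equal groups by mean level, 1836 of 9718 genes were higher and 2223 lower. Klf4, needed for monocyte differentiation in mice, read 12.42 and 12.41 in Ly6Cneg, 8.24 to 8.54 in Ly6Chi and 9.11 to 9.20 in Ly6Cint. Irf4, a relative of Irf8 used by dendritic and plasma cells, differed by 2.62 ± 0.15 and 2.18 ± 0.15. Irf8 itself read 12.78 and 12.73, against 13.50 to 13.60 and 13.31 to 13.43, lower by smaller steps (-0.80 ± 0.09, adjusted p = 4.56e-09, and -0.63 ± 0.09, 7.09e-07). Spi1, encoding the myeloid factor PU.1, was lower (-0.37 and -0.72), a call lost with quantile normalization, and Cebpa was lower than in Ly6Chi (-1.21 ± 0.08) and at 0.02 ± 0.08 from Ly6Cint (adjusted p = 0.922).

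Innate receptors were lower more often than higher. Of 12 Toll-like receptor genes 6 were lower, led by Tlr2 (10.41 and 10.38, against 12.80 to 12.86 and 14.01 to 14.06). The 1 that was higher was the endotoxin receptor gene Tlr4 (0.77 ± 0.15 and 0.62 ± 0.15). Its call was lost without Ly6Cneg replicate 2 and with only the compared libraries. Of 16 C-type lectin receptors 8 were lower, including the fungal sensor gene Clec4n (-2.77 and -2.36) and Clec12a (-2.35 and -3.18), and 4 were higher: Mgl2, Mrc1, Clec10a and Cd209a (2.64 and 1.79). Of 11 Fc receptor genes 5 were lower, including the high-affinity IgG receptor gene Fcgr1 (-2.64 and -4.31), and Fcer1a alone was higher.

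The chemokine genes Ccl2 and Ccl7, whose products bind Ccr2, were higher. Ccl2 read 11.67 and 11.58 in Ly6Cneg, 7.59 to 7.97 in Ly6Chi and 8.46 to 8.77 in Ly6Cint, and Ccl7 read 10.82 and 10.66, against 6.73 to 7.54 and 7.03 to 7.19. Neither gene overlapped between Ly6Cneg and the others. With Ccl24 they were the 3 of 12 CC chemokines that were higher, and Ccl3, Ccl4, Ccl5 and Ccl6 were lower, the last not with quantile normalization. Of 13 CXC chemokines 4 were lower, such as Cxcl16 (-3.15 and -3.69), and 1 higher (Ppbp). Of 20 cytokine and IL-1 system genes 8 were lower, including Tnf (-1.05 and -2.81) and Il10 (-1.07 and -2.02), and 5 of these were lower without Ly6Cneg replicate 2. The 3 that were higher were the IL-33 receptor gene Il1rl1 (2.20 and 2.06), Il1r1 (1.76 and 1.49) and Tnfsf9 (1.17 and 0.70).

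Receptors through which monocytes become osteoclasts, bone-resorbing cells, were lower. Of 16 osteoclast receptors and regulators, 8 were lower and 1 higher than in both (medians -0.52 and -0.65). Csf1r, the MCSF receptor, read 15.68 and 15.86 in Ly6Cneg, 16.86 to 17.12 in Ly6Chi and 17.07 to 17.13 in Ly6Cint. Tnfrsf11a, the RANKL receptor RANK, read 10.67 and 10.87, against 11.36 to 11.83 and 11.89 to 11.98. Both receptors were below every other library, by -1.22 ± 0.10 and -1.33 ± 0.10 and by -0.78 ± 0.15 and -1.16 ± 0.15. The signalling adaptor genes Tyrobp (-1.27 and -1.14) and Fcer1g (-1.32 and -1.62) were lower, and Nfatc1, the master factor of osteoclasts, was not called (0.09 ± 0.16 and -0.20 ± 0.16). Of 16 effector and fusion genes 5 were lower, led by Mmp14 and Mmp9. The 3 that were higher were the proton pump subunit gene Atp6v0d2 (1.63 and 2.78), the fusion gene Ocstamp (1.18 and 1.52) and Cd9 (0.28 and 0.56). The Cd9 call was lost without either Ly6Cneg library, without Ly6Chi replicate 1 and with only the compared libraries. It was also lost with library weights and without the trend and robust options. Ctsk, the collagen protease of osteoclasts, was not called against Ly6Chi (0.86 ± 0.44, adjusted p = 0.212).

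Of 12 progenitor genes 4 were higher and 0 lower than in both, against 7.49% and 6.95% of all genes, and 2 were higher without Ly6Cneg replicate 1. Their summed level was lower instead, at 19500 to 21300 normalised reads in Ly6Cneg, 23400 to 37300 in Ly6Chi and 31800 to 34900 in Ly6Cint. These sums were not scaled to the totals over all genes, which were also lowest in Ly6Cneg. Cd34, a stem and progenitor cell marker, read 10.86 and 11.01, against 8.03 to 8.12 and 9.02 to 9.33. Kit, the stem cell factor receptor, was 2.20 ± 0.16 above Ly6Chi and averaged 9.73 in Ly6Cneg and in Ly6Cint. Of 17 T and NK cell markers 1 was higher (Il7r) and 1 lower (Cd4, at 12 reads in each Ly6Cneg library and 170 to 337 in Ly6Chi), while the T cell receptor genes Cd3e, Cd3d and Cd3g averaged 5.04 to 5.89 in Ly6Cneg. Of 18 stromal, osteoblast and endothelial markers 1 was higher (Runx2), and of 12 erythroid and megakaryocyte markers 2 were (Itga2b and Ppbp). Next to 7.49% of all genes higher and 6.95% lower, the counts for T and NK cell and stromal markers are no more than the background.

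The same contrast was then read in libraries that share none with it. At day 0 in libraries labelled cKO, in which Irf8 was 14.03 to 14.25 in group mean and so above the WT values, 4371 genes were higher in Ly6Cneg than in both (11.2%) and 2469 lower (6.35%). Of the WT rises 899 were shared, 30.9% of the WT list and 20.6% of the cKO list, and of the falls 1017, or 37.7% and 41.2%. In the opposite direction 138 and 119 were called. The tested difference between genotypes was above 0 against both for 1916 genes (4.93%) and below 0 for 1832 (4.71%). At day 4 in WT, 2361 genes were higher than in both (6.07%) and 2022 lower (5.2%). Of the day 0 lists, 542 of the rises were shared (18.6% of the day 0 list, 23% of the day 4 list) and 400 of the falls (14.8% and 19.8%), while 408 and 530 were called in the opposite direction. The difference between days was above 0 for 2758 genes (7.09%) and below 0 for 2580 (6.64%).

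Gene groups differed in how far they were shared. The medians of the 20 mitosis genes were -0.16 and -0.04 in cKO libraries and 0.64 and 0.65 at day 4, and the WT minus cKO difference was above 0 for 20 of 20. Interferon-stimulated genes had medians of -0.21 and -0.24 in cKO libraries and 1.65 and 0.63 at day 4. For this list the WT minus cKO difference was below 0 for 31 of 32 and the day 0 minus day 4 difference for 32 of 32. Primary granule genes had medians of 0.27 and -2.16 in cKO libraries, with 7 of 8 above 0 for WT minus cKO. MHC class II genes had medians of 2.12 and 1.76 in cKO libraries and 2.48 and 1.38 at day 4, and 10 and 9 of 11 called higher from Ly6Chi and Ly6Cint in cKO. Secondary granule genes were lower in cKO libraries too (medians -3.94 and -4.62), and had medians of 0.89 and 0.63 at day 4. Since the WT genes were named from the WT libraries that also enter these differences, differences above 0 for the rises and below 0 for the falls are partly built in, and the lists too were chosen with results of these data known.

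**Figure D5:**
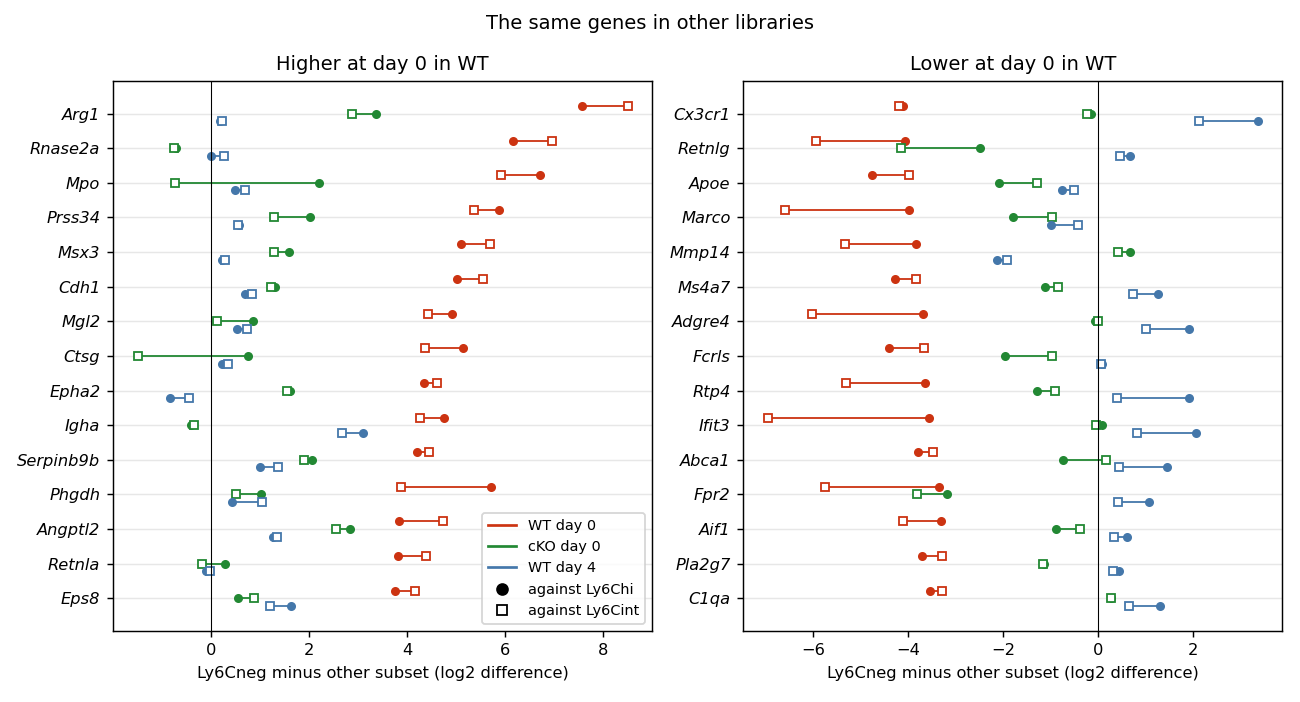
Log2 difference of Ly6Cneg from Ly6Chi (circles) and from Ly6Cint (squares) for the 30 leading genes in WT day 0 (red), cKO day 0 (green) and WT day 4 (blue) libraries. Arg1 reads 7.56 and 8.50 in WT day 0, and Cx3cr1, at -4.10 and -4.19 there, lies above 0 at day 4.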

How the data were processed

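Sorted mouse monocyte subsets and osteoclasts were profiled by RNA-seq of total RNA. The authors deposited 1 table of log2-scale normalized expression, 38942 genes by 34 libraries. The submitters' processing notes name HISAT2, DESeq2 and build mm10 without roles, and the transform is not given in the sources used here. The deposited log2 values had a floor of 3.9 at 0 reads and rose in whole-read steps, 100% of the low levels being whole within 0.1. From these steps reads and relative depth were recovered. Differences of low genes are understated, and read sums above the steps are approximate.

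limma 3.58.1 in R 4.3.3 was fitted to 12 group means over all 34 libraries, with trend and robust options, on the 38873 genes above 4.78 in at least 3 libraries. Adjusted p-values are Benjamini-Hochberg over all tested genes in each comparison, with a threshold of 0.05, and ± values are standard errors from this fit. No count test was run, because the deposited unit is log2. The procedure was tested on simulated data.

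Named genes were the 15 rises and 15 falls with the largest smaller difference, among genes called in both comparisons, without overlap between groups and with a highest group mean of at least 8.84, and up to 4 members of each gene list, with Ly6c1, Ly6c2, Irf8, Csf1r, Tnfrsf11a, Cx3cr1 and Ccr2. Further members of the lists were named after their values were seen. The compared groups, gene lists and motifs were chosen with earlier results of these data known. Gene coordinates are from GENCODE M21. Alternatives were other filters, scalings, library weights, only the compared libraries, recovered reads on a log scale, and leaving out each library.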

Additional observations from a re-analysis of the deposited data

Results flagged for a closer look

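The Ly6Cneg contrast of WT day 0 was set against that of the cKO libraries at day 0 and of WT at day 4, by a test of the difference in the same limma fit. It differed above 0 against both for 1916 genes and below 0 for 1832 between genotypes, and above 0 for 2758 and below 0 for 2580 between days. The 30 leading genes were chosen from the same WT libraries, so shifts in the direction of their choice are partly built in. For each gene below, the value is the smaller of both log2 shifts, first for WT minus cKO and then for day 0 minus day 4.

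Among the leading rises, the difference shifted for Cdh1 by 3.72 and 4.33, Angptl2 by 1 and 2.58, Epha2 by 2.74 and 5.08 and Mpo by 4.51 and 5.22. Also shifted were Eps8 by 3.22 and 2.14, Arg1 by 4.19 and 7.38, Serpinb9b by 2.14 and 3.09 and Msx3 by 3.50 and 4.88. Further values were those of Ctsg by 4.39 and 4.01, Mgl2 by 4.07 and 3.70, Rnase2a by 6.85 and 6.15 and Phgdh by 3.35 and 2.83. The rest were Prss34 by 3.85 and 4.81, Retnla by 3.52 and 3.9 and Igha by 4.61 between genotypes alone.

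Among the leading falls, the difference shifted for Mmp14 by -4.53 and -1.71, Apoe by -2.69 and -3.48, Abca1 by -3.06 and -3.92 and Fcrls by -2.44 and -3.75. Also shifted were Retnlg by -1.57 and -4.75, Pla2g7 by -2.14 and -3.62, Aif1 by -2.43 and -3.91 and Ms4a7 by -3 and -4.58. Further values were those of Marco by -2.20 and -3, Adgre4 by -3.63 and -5.61, Rtp4 by -2.37 and -5.56 and C1qa by -3.56 and -3.95. The rest were Fpr2 by -4.41 between days alone, Cx3cr1 by -3.96 and -6.33 and Ifit3 by -3.65 and -5.63.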

How the results depend on the processing

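The counts of 2911 rises and 2701 falls were 1023 and 664 when at least 2-fold was required of each. Leaving out 1 library at a time gave 2152 to 2862 rises and 2013 to 2670 falls, 5976 to 8069 calls against Ly6Chi and 6233 to 9274 against Ly6Cint. The other alternatives gave 2808 to 3718 rises and 2529 to 3328 falls. The count of genes below 0 for WT minus cKO was 1832, and 1136 with only the libraries of the compared groups; the cause was not tested. Leaving out 1 library, an alternative added after seeing the data, gave 1489 to 1900 genes above and 1285 to 1841 below 0 for WT minus cKO, and 2371 to 2779 above and 2103 to 2594 below for day 0 minus day 4. The 30 leading genes kept their calls under all 17 alternatives, which their choice by large differences in the same libraries made likely. Of the 313 list members called against both, 31 lost the call without Ly6Cneg replicate 1, 29 without replicate 2 and 15 with quantile normalization, and at most 8 under any other alternative. With quantile normalization 2 of them were called in the opposite direction (Ctsb and Fth1). No paired analysis was possible because the labels number the samples serially and share no replicate numbers across groups. With 2 Ly6Cneg libraries, precision is limited, and reads of 0 to 6 show little at this depth.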

Other observations

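Metabolic gene lists were read against 7.49% of all genes higher in Ly6Cneg than in both and 6.95% lower. These shares depend on level: in the highest of 4 equal groups by mean level, 1836 of 9718 genes were higher and 2223 lower. The lists were not compared with genes of like level. Of 16 glycolysis and glucose uptake genes, 8 were higher in Ly6Cneg than in both and 1 was lower (13 higher and 0 lower with quantile normalization), with Ldha, encoding lactate dehydrogenase A, at 1.59 and 1.48 and the glucose transporter gene Slc2a1 at 1.24 and 1.07, while Hk2 was lower (-0.31 and -0.71), a call lost without either Ly6Cneg library, without Ly6Chi replicate 1 and with quantile normalization. Of 20 nuclear-encoded respiratory chain genes 6 were higher and 0 lower, and 3 were higher without Ly6Cneg replicate 1. Of 12 iron and heme genes 7 were lower, including the iron exporter gene Slc40a1 (-2.89 and -1.88) and the phagosomal metal transporter gene Slc11a1 (-2.19 and -1.64), and 2 were higher, the transferrin receptor gene Tfrc (1.30 and 2.11) and the heme oxygenase gene Hmox1 (0.57 and 1.57). Of 15 sterol synthesis genes 0 were higher and 2 lower, counts near the background, and of 12 immediate early and heat shock genes 0 were higher and 4 lower.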
